A study of Mus musculus with 12 samples.

Results

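Expression of chemokines and their receptors was followed in 3 settings of the superior cervical ganglion (SCG), which holds sympathetic neurons of the neck. The 35 genes were taken from a list of symbols that was drawn up with earlier results of these data known. They are 15 ligands of the CC class, 10 of the CXC class, Cx3cl1 and Xcl1, 7 receptors and the scavenging receptor Ackr3. All 35 had a probe set of their own among the 18193 genes measured, and where a gene had several probe sets, the one that was brightest on average over the 12 arrays was taken. Dissociated SCG cells were kept for 5 days on a flat substrate (2D) or within porous scaffolds of polystyrene (3D), and ganglia taken straight after dissection made up the tissue group. All came from CD1 mice, labelled as 21 days old, whereas the study's methods speak of neonatal animals. The flat substrate is a polystyrene Petri dish in the labels and a glass-bottom dish in the study's methods. There, both substrates were coated with type I collagen, the medium held serum and nerve growth factor, and a dish or scaffold took the pooled cells of about 2 ganglia. Each group had 4 biological replicates. Comparing tissue with culture therefore sets an intact ganglion against cells that were dissociated, fed and kept for days, and these steps cannot be told apart. No step that removes other cells from the cultures is named in the sources used here.

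Chemokines are small secreted or membrane-tethered proteins that direct the migration of cells along a gradient. They act through receptors coupled to inhibitory G proteins, mostly on leukocytes, and a few atypical receptors such as Ackr3 take ligand up without that coupling. CC ligands such as Ccl2 chiefly draw monocytes and lymphocytes, and the CXC ligands Cxcl1, Cxcl2 and Cxcl5 draw neutrophils through Cxcr2. Cxcl9, Cxcl10 and Cxcl11 are induced by interferon and draw T cells. Many inflammatory ligands are transcribed under NF-kB in fibroblasts, glia, endothelium and macrophages, while Cxcl12 with its receptor Cxcr4 and Cx3cl1 with its receptor Cx3cr1 also have roles in nervous tissue.

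Each value is a log2 expression level as the authors deposited it. Levels can be compared between arrays for a gene but not between genes. The median over all probe sets was 6.34 to 6.53 on the arrays, and since no detection call goes with these values, a fold of a probe set well under that median is an estimate close to background. Tissue replicates 2 and 3 had a narrower range of values, with SDs of 2.14 and 1.93 against 2.31 to 2.42 on the other arrays. Tissue replicate 3 also stood farthest from the rest of its group, by a root mean square of 0.839 against 0.143 to 0.576 for the other arrays. The labelled cells were seen on all arrays: the mean of 13 sympathetic neuron markers was 9.67 to 11.2 in 2D, 9.93 to 10.74 in 3D and 10.93 to 12.32 in tissue, and Th, the enzyme that opens noradrenaline synthesis, was 9.44 or more on all 12. The mean of 8 skeletal muscle markers was 5.06, 8.34, 7.09 and 8.61 on tissue replicates 1 to 4 and 4.80 to 5.03 in the cultures. The mean of 9 fibroblast markers was 10.67 to 12.37 throughout.

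The promoters of 3 ligands that stood far apart between culture and tissue are shown because each holds a match to the NF-kB consensus. Each line gives the 120 bases before the annotated start, on the strand of the gene. Capitals mark matches to that consensus on this strand. The sequences are from RefSeq, build GRCm38.p6.

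Cxcl1, chr5:90891125-90891244, plus strand: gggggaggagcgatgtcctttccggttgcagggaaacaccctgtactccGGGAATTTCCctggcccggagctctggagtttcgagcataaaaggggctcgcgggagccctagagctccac

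Cxcl2, chr5:90903779-90903898, plus strand: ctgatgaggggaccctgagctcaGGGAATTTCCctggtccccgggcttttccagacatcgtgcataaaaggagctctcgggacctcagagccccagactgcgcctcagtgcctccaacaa

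Cxcl10, chr5:92348890-92349009, minus strand: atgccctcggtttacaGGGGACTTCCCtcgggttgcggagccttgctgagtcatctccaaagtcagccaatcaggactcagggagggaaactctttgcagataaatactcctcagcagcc

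The match lay 61 bases before the start in Cxcl1 and 87 bases before it in Cxcl2. In Cxcl10 the capitals hold 2 matches that overlap, 94 and 93 bases before the start, and another lay 149 bases before it. Windows of 250 bases before to 50 bases after the start were given for 25 of the 35 genes. The NF-kB consensus was searched on the strand of the gene only, and the other motif named below on both strands. On the strand of the gene the NF-kB consensus was found in 4 of the 25 genes (16.0%), with Ccr1 as the fourth. It was found there in 6.72% of all 27025 genes with a window, and the other strand was not searched for it. Ccl3 held no match on its own strand, and Ccl2, Ccl7, Cxcl5 and Cxcl16 were not searched. The motif GAAANNGAAA, a core of interferon-responsive elements, was found in Cxcl10 at 203 bases and in Cxcl14 at 162 bases before the start, and in 3.99% of all genes with a window. A match is only a match of letters. Cxcl1 and Cxcl2 lie side by side on chromosome 5, in a cluster that begins with Cxcl5, and Cxcl10 lies between Cxcl9 and Cxcl11 on the same chromosome.

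Of the 18 genes called in some comparison, 8 ligands were lower in tissue than in both cultures, 5 ligands were lower than in 3D without a call against 2D, and 5 genes were higher in tissue than in at least 1 culture, among them all 3 receptors that were called. Against 2D, 8 of the 35 genes were lower in tissue (limma, adjusted p under 0.05), which is 22.9% where 14.3% of all 18193 genes were lower. Of the 35, 4 (11.4%) were higher, against 9.87% of all genes. Against 3D, 13 (37.1%) were lower where 20.1% of all genes were lower, and 4 (11.4%) were higher against 15.5% of all genes. The share of genes higher was thus near that of all genes or under it in both comparisons, and the share lower stood above it. The 8 genes lower against 2D were all among the 13 lower against 3D, but both comparisons use the same 4 tissue arrays. Median differences were −0.18 for the 35 genes and 0.03 for all genes against 2D, and 0.04 and 0.03 against 3D. These medians join ligands, at −0.37 and −0.58, and receptors, at 0.46 and 0.53.

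By class, 8 of the 27 ligands were lower and 2 higher in tissue than in 2D, and 13 were lower and 1 higher than in 3D. Of the 8 receptors, Ackr3 included, 0 were lower in either comparison, and 2 and 3 were higher than in 2D and 3D. Between 3D and 2D, 0 genes of the 35 were called in either direction, where 0.0165% of all genes were higher and 0.0% lower. In bulk RNA, fewer cells of a type and less RNA per cell cannot be told apart, which holds for every comparison here.

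**Figure D1:**
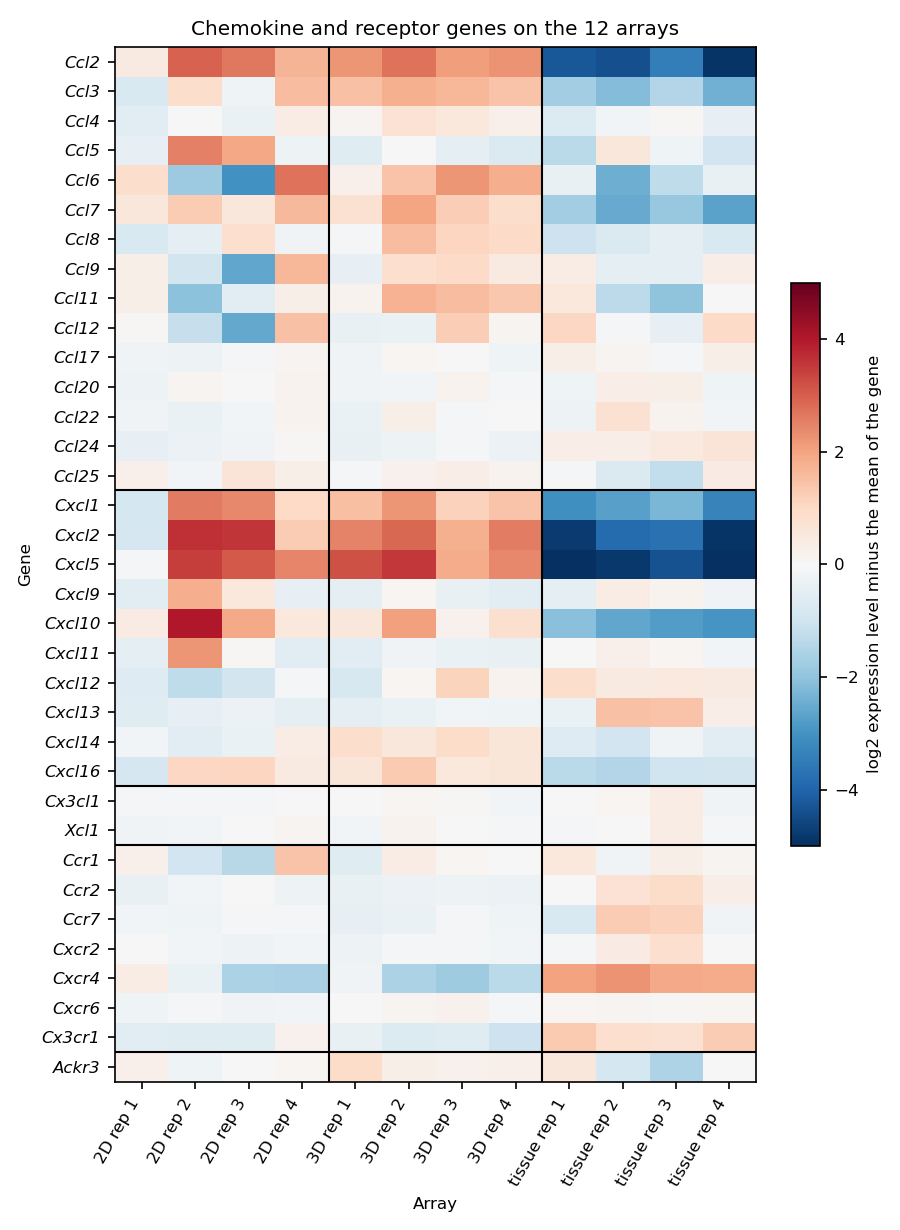
Log2 expression level of the 35 genes (rows, by class) on the 12 arrays (columns), each minus the mean of that gene over the arrays, from blue (lower) to red (higher). Ccl2, Cxcl1, Cxcl2, Cxcl5 and Cxcl10 are blue on all 4 tissue arrays, and Cxcr4 is red there; several rows also differ between the 4 arrays of 2D.

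Cxcl1, Cxcl2 and Cxcl5, the neutrophil-attracting ligands of Cxcr2, had some of the widest differences among the 35. Cxcl5 was 8.65, 12.15, 11.75 and 11.12 on 2D replicates 1 to 4, 11.89, 12.24, 10.56 and 11.09 on the 3D replicates, and 3.46, 3.86, 4.33 and 3.26 on the tissue replicates; values below are in the same order. No tissue array came near any culture array. The difference in Cxcl5 was −7.19 ± 0.68 (log2, SE, n = 4 per group, limma adjusted p = 0.000325) from the 2D mean and −7.72 ± 0.38 (adjusted p = 5.46e-06) from the 3D mean. Since Cxcl5 in tissue lay far under the median of the arrays, the size of that difference is an estimate. Cxcl2 was 8.59, 13.08, 12.98 and 10.67 in 2D, 11.89, 12.27, 11.20 and 11.98 in 3D and 4.62, 5.56, 5.67 and 4.51 in tissue. It differed by −6.24 ± 0.92 (adjusted p = 0.00263) and −6.75 ± 0.33 (adjusted p = 4.96e-06). Here too the groups did not overlap, and 2D replicate 1 was the lowest culture array.

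Cxcl1 was 9.99, 13.47, 13.26 and 11.85 in 2D, 12.36, 13.08, 12.02 and 12.28 in 3D and 7.82, 8.16, 8.58 and 7.54 in tissue, with differences of −4.12 ± 0.69 (adjusted p = 0.00474) and −4.41 ± 0.28 (adjusted p = 1.72e-05). Its other probe sets were lower in tissue as well, but by different amounts: 1419209_at by −6.28 and −6.56, and 1441855_x_at by −1.99 and −1.92. The size for Cxcl1 therefore depends on the probe set. Cxcr2, the receptor these ligands share, was at 5.39 to 5.61 on the culture arrays and 5.53, 6.06, 6.47 and 5.63 in tissue, and passed no test (adjusted p = 0.17 and 0.131). The mean of 8 neutrophil markers was 5.67 to 6.22 in 2D, 5.79 to 6.11 in 3D and 5.91 to 6.52 in tissue.

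**Figure D2:**
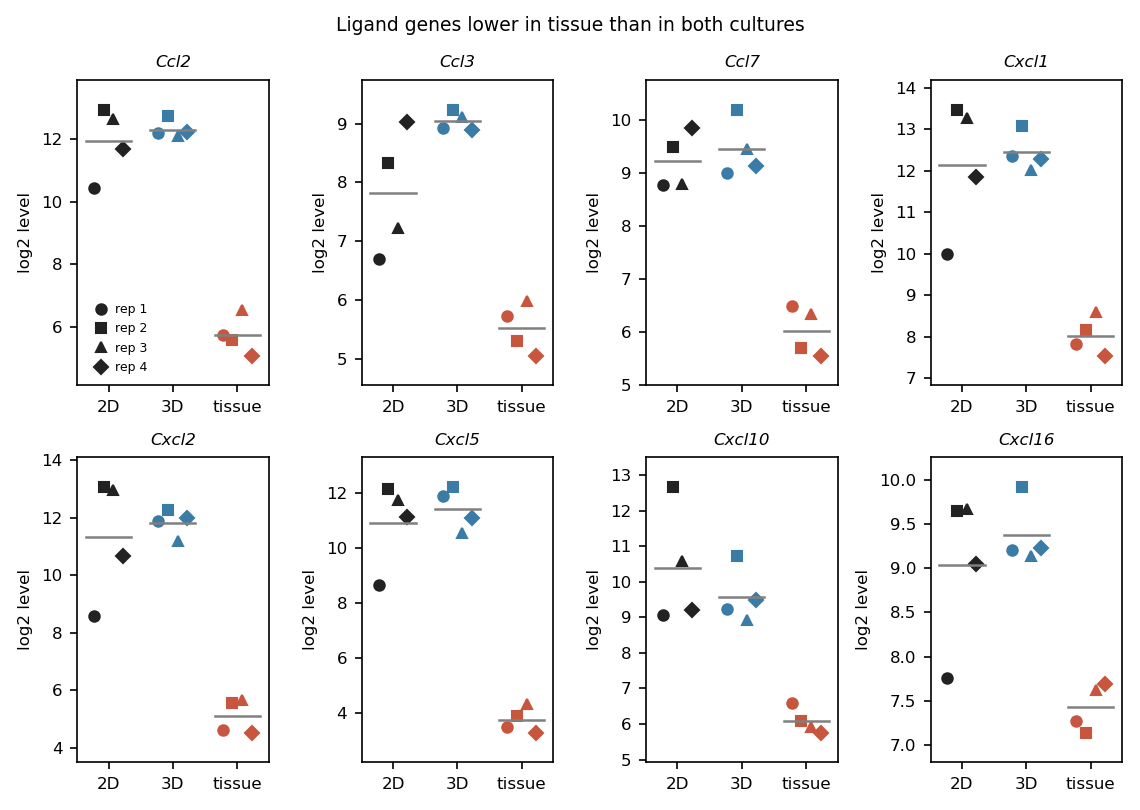
Log2 expression level of the 8 ligand genes called lower in tissue than in both cultures, one point per array with the replicate number as the marker and a line at the mean of 4 arrays; the vertical scale differs between panels. Tissue points lie below all culture points in every panel, and 2D replicate 1 is the lowest 2D array for all 8, for Ccl7 by 8.78 against 8.80.

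Among CC ligands, the monocyte attractants Ccl2 and Ccl7 and the Ccr1 ligand Ccl3 were lower in tissue than in both cultures. Ccl2 was 10.44, 12.94, 12.64 and 11.68 in 2D, 12.18, 12.72, 12.08 and 12.22 in 3D and 5.74, 5.58, 6.53 and 5.09 in tissue. It differed by −6.19 ± 0.53 from 2D (adjusted p = 0.000213) and −6.57 ± 0.29 from 3D (adjusted p = 3.19e-06), with no overlap between tissue and culture. Ccl7, which neighbours Ccl2 on chromosome 11, was 8.78, 9.49, 8.80 and 9.86 in 2D, 9.0, 10.20, 9.45 and 9.13 in 3D and 6.48, 5.70, 6.34 and 5.55 in tissue, with differences of −3.21 ± 0.31 (adjusted p = 0.000365) and −3.43 ± 0.31 (adjusted p = 9.91e-05). Its 4 tissue arrays again lay under all 8 culture arrays. Ccl3 was 6.69, 8.33, 7.23 and 9.02 in 2D, 8.92, 9.24, 9.11 and 8.89 in 3D and 5.73, 5.30, 5.98 and 5.05 in tissue. The difference in Ccl3 was −2.30 ± 0.48 from 2D (adjusted p = 0.0114) and −3.52 ± 0.21 from 3D (adjusted p = 1.29e-05), and the 3D arrays were much closer to one another than the 2D arrays.

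A further 4 CC ligands were called lower in tissue against 3D and were not called against 2D. Ccl8 was 7.63, 9.22, 8.75 and 8.62 in 3D and 6.66, 6.95, 7.21 and 6.92 in tissue (−1.62 ± 0.31, adjusted p = 0.00436). Ccl6, a Ccr1 ligand of myeloid cells, was 8.48, 9.63, 10.41 and 10.02 in 3D and 7.85, 5.77, 6.94 and 7.83 in tissue (−2.54 ± 0.54, adjusted p = 0.00732). Both were separate between the groups. Ccl11, an eosinophil attractant of fibroblasts, was 9.38, 10.94, 10.73 and 10.53 in 3D and 9.72, 7.89, 7.19 and 9.20 in tissue, where replicate 1 overlapped the 3D arrays (−1.90 ± 0.56, adjusted p = 0.0312). Without tissue replicate 2 (0.0908) or 3D replicate 2, 3 or 4 (0.087, 0.0808 and 0.0775) Ccl11 did not pass. Ccl4 was 8.40, 8.97, 8.80 and 8.51 in 3D and 7.59, 8.11, 8.31 and 7.87 in tissue (−0.70 ± 0.20, adjusted p = 0.0249). Its call was lost without 3D replicate 2 (0.0789) or 3 (0.0716). Against 2D the 4 differences were −0.60, −0.80, −0.19 and −0.17 in the same order, with adjusted p from 0.187 to 0.846. A gap between the difference against 2D and that against 3D is the difference between 3D and 2D itself, for which 0 of these genes passed.

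Ccl24, another eosinophil attractant, went the other way. It was 6.67, 6.76, 6.90 and 7.13 in 2D, 6.70, 6.82, 6.98 and 6.76 in 3D and 7.39, 7.41, 7.56 and 7.73 in tissue, so that all tissue arrays stood above all culture arrays by a small margin. Ccl24 was higher than in 2D by 0.66 ± 0.16 (adjusted p = 0.02) and than in 3D by 0.71 ± 0.13 (adjusted p = 0.0042). With 2D replicate 1 or 2 left out, the call against 2D was lost (0.0639 and 0.0675).

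Cxcl10, the interferon-induced ligand, was 9.08, 12.68, 10.58 and 9.21 in 2D, 9.24, 10.72, 8.92 and 9.48 in 3D and 6.58, 6.09, 5.91 and 5.75 in tissue. It differed in tissue by −4.30 ± 0.71 from 2D (adjusted p = 0.00436) and −3.51 ± 0.37 from 3D (adjusted p = 0.000227). Its neighbours on chromosome 5 were not called in either tissue comparison. Cxcl9 was 5.37, 7.76, 6.47 and 5.54 in 2D and 5.50, 6.29, 6.12 and 5.76 in tissue, and Cxcl11 was 6.02, 8.71, 6.57 and 6.01 in 2D and 6.51, 6.77, 6.61 and 6.37 in tissue. Neither passed against 2D (adjusted p = 0.581 and 0.73). Cxcl11 in 3D, at 6.0, 6.35, 6.21 and 6.14, lay just under its tissue arrays without overlap (0.39 ± 0.14, adjusted p = 0.0586; 0.037 without tissue replicate 4).

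Cxcl16, a membrane-tethered ligand that is shed by metalloproteases and binds Cxcr6, was 7.76, 9.65, 9.67 and 9.05 in 2D, 9.21, 9.92, 9.14 and 9.23 in 3D and 7.27, 7.14, 7.62 and 7.69 in tissue. It differed by −1.60 ± 0.40 from 2D (adjusted p = 0.0231) and −1.95 ± 0.21 from 3D (adjusted p = 0.000278). With 2D replicate 1 at 7.76, the margin to tissue was narrow, and the call against 2D was lost without 2D replicate 2 (0.0677), 3 (0.0562) or 4 (0.0576) or tissue replicate 2 (0.0722). A dimmer probe set of Cxcl16, 1449195_s_at, differed more widely, by −3.24 (adjusted p = 0.00871) and −3.60 (adjusted p = 0.000116). Cxcl14 was 7.07, 6.67, 6.89 and 7.60 in 2D, 8.07, 7.77, 8.12 and 7.80 in 3D and 6.56, 6.24, 7.05 and 6.68 in tissue. It was lower in tissue than in 3D (−1.31 ± 0.19, adjusted p = 0.0011) and was not called against 2D (−0.42 ± 0.24, adjusted p = 0.213). A dimmer probe set of Cxcl14, 1418457_at, was 5.73 to 8.32 on the culture arrays and 3.32 to 3.88 in tissue, and was called lower against both (−3.16, adjusted p = 0.0033, and −3.82, adjusted p = 5.67e-06).

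**Figure D3:**
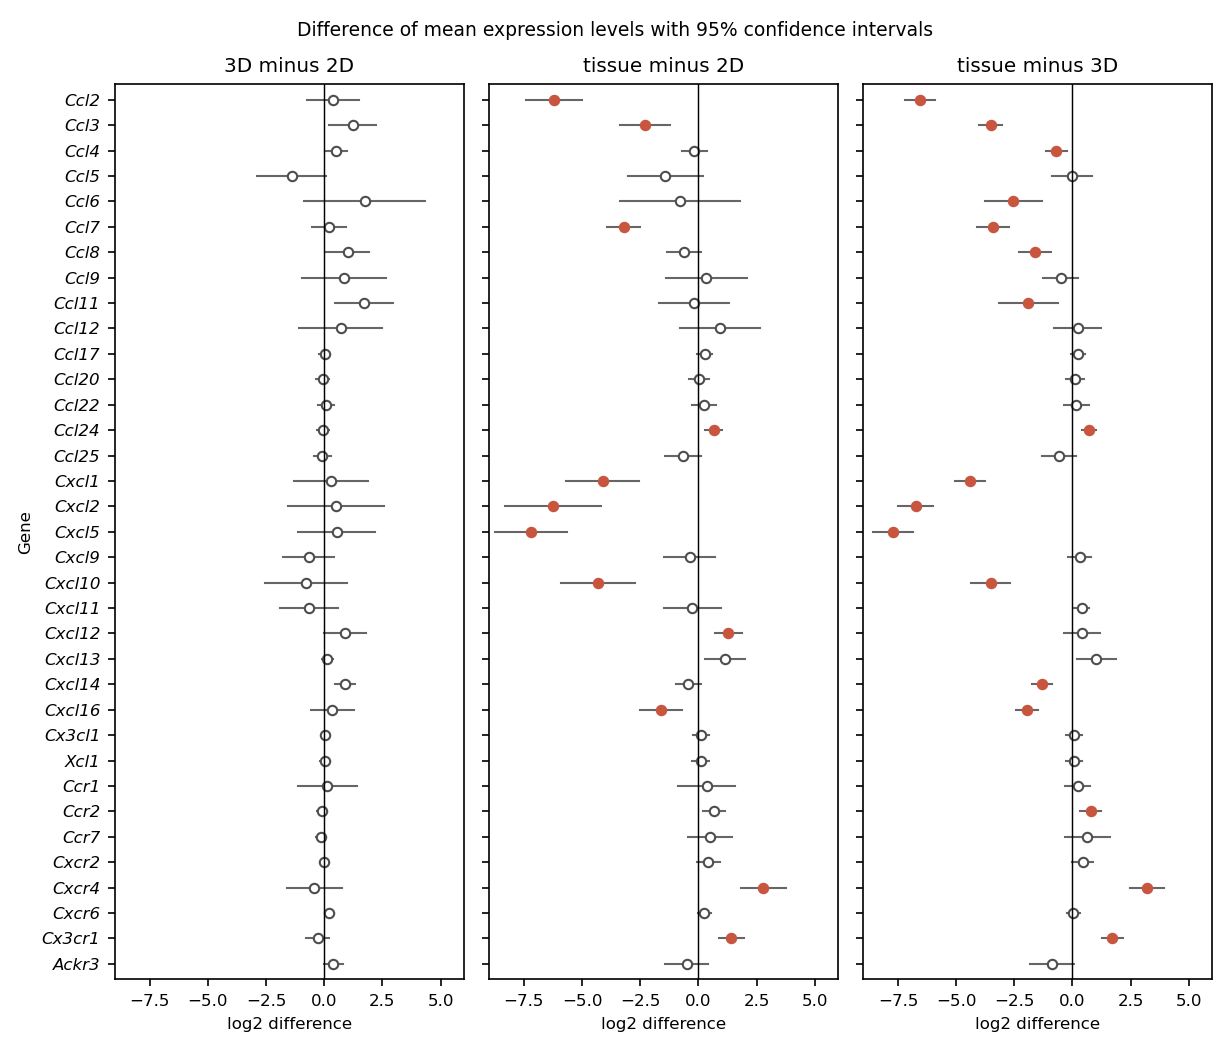
Difference of the mean log2 expression level with its 95% confidence interval for the 35 genes in each pair of groups; filled points passed an adjusted p of 0.05. No point is filled between 3D and 2D, and the filled points in tissue are 8 to the left and 4 to the right against 2D, and 13 and 4 against 3D.

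Cxcl12, the ligand of Cxcr4 and Ackr3, and Cxcr4 itself were both higher in tissue than in 2D. Cxcr4 was 9.68, 8.97, 7.73 and 7.68 in 2D, 9.15, 7.72, 7.54 and 7.97 in 3D and 11.33, 11.54, 11.21 and 11.16 in tissue. All tissue arrays lay above all culture arrays, and they spanned only 0.38 where 2D spanned 2.00 and 3D 1.61. The difference in Cxcr4 was 2.80 ± 0.42 from 2D (adjusted p = 0.00302) and 3.22 ± 0.32 from 3D (adjusted p = 0.000178). The 2 culture arrays with the highest Cxcr4, 2D replicate 1 and 3D replicate 1, also had the highest sympathetic neuron markers of their groups, with means of 11.20 and 10.74. On other arrays markers and Cxcr4 did not go together: 2D replicate 3 had a marker mean of 11.08 with Cxcr4 at 7.73, and tissue replicate 3 a marker mean of 10.93 with Cxcr4 at 11.21. Of 13 such markers, 4 (30.8%) were higher in tissue than in 2D and 9 (69.2%) than in 3D. The shares of all genes were 9.87% and 15.5%. The mean of 12 endothelial markers was 6.24 to 6.85 in culture and 7.06 to 8.12 in tissue. Of these, 7 (58.3%) were higher and 1 lower than in 2D, and 8 (66.7%) higher and 0 lower than in 3D. The part of cell makeup in the difference of Cxcr4 was not tested. Cxcl12 was 8.14, 7.50, 7.83 and 8.72 in 2D, 7.97, 8.86, 9.89 and 8.96 in 3D and 9.63, 9.21, 9.27 and 9.22 in tissue. It differed by 1.28 ± 0.26 against 2D (adjusted p = 0.0098) and by 0.41 ± 0.35 against 3D (adjusted p = 0.367), where the groups overlapped. Its other probe sets were not called against 2D (0.84, adjusted p = 0.0581, for 1417574_at, and 0.17, adjusted p = 0.593, for 1439084_at).

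Ackr3, which scavenges Cxcl12, was 9.34, 8.84, 9.08 and 9.18 in 2D, 10.00, 9.38, 9.29 and 9.31 in 3D and 9.62, 8.21, 7.52 and 9.07 in tissue. It was not called in any comparison; against 3D the difference was −0.89 ± 0.42 (adjusted p = 0.126), and 0.0296 without tissue replicate 1. The tissue arrays low in Ackr3 were replicates 2 and 3, which have the narrower range of values. The marker means of fibroblasts (11.10 and 10.67), glia (10.48 and 10.03), neurons (11.72 and 10.93), endothelium (7.48 and 7.06) and macrophages (7.78 and 7.75) were also the lowest in tissue there, and their part in Ackr3 was not tested.

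Cx3cr1, the receptor of resident macrophages and microglia for Cx3cl1, was 6.30, 6.23, 6.23 and 7.05 in 2D, 6.47, 6.16, 6.24 and 5.78 in 3D and 8.13, 7.65, 7.60 and 8.11 in tissue. It was higher in tissue by 1.42 ± 0.23 (adjusted p = 0.00433) and 1.71 ± 0.20 (adjusted p = 0.000353), with no overlap. A dimmer probe set, 1450019_at, was not called (0.24 and 0.22, adjusted p = 0.364 and 0.369). The mean of 15 macrophage markers was 6.22 to 9.27 in 2D, 7.77 to 8.17 in 3D and 7.75 to 8.73 in tissue. Of these markers 1 (6.67%) was higher and 2 (13.3%) lower in tissue than in 2D, against 9.87% and 14.3% of all genes. Against 3D, 7 (46.7%) were higher and 4 (26.7%) lower, against 15.5% and 20.1% of all genes. Adgre1, which defines mouse macrophages, was 6.58 or more on all 12 arrays. The part of macrophage number in Cx3cr1 was not tested. Cx3cl1, its membrane-tethered ligand made by neurons, was 7.32 to 7.86 over all 12 arrays and passed no test, although its more variable probe set 1415803_at was called lower in tissue than in 3D (−0.49, adjusted p = 0.0411).

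Ccr2, the receptor of Ccl2 on inflammatory monocytes, was 6.38, 6.62, 6.75 and 6.48 in 2D, 6.39, 6.44, 6.51 and 6.47 in 3D and 6.75, 7.46, 7.65 and 7.07 in tissue. It was higher than in 3D by 0.78 ± 0.20 (adjusted p = 0.0159) and just missed the threshold against 2D (0.68 ± 0.21, adjusted p = 0.0505; 0.0199 without tissue replicate 1). The probe sets 1421188_at and 1421186_at of Ccr2 were close to 4 on the culture arrays, at 3.83 to 4.41, and at 4.88 to 6.58 in tissue, and both were called against 2D (1.55, adjusted p = 0.00642, and 1.75, adjusted p = 0.00357) and against 3D. A further one, 1421187_at, was 4.07 to 4.43 in culture and was called against 3D (0.64, adjusted p = 0.0353) and not against 2D (0.61, adjusted p = 0.0554). Ccr2 was thus higher in tissue than in 3D, where its ligands Ccl2 and Ccl7 were lower. Ccl12, a monocyte attractant of the same cluster, was not called there (0.22, adjusted p = 0.716). Ccr1, the receptor of Ccl3, Ccl6 and Ccl9, was 5.20 to 7.99 in 2D, 5.97 to 6.94 in 3D and 6.39 to 7.09 in tissue, and was not called (adjusted p = 0.641 and 0.47). Cxcr6 was 4.71 to 5.17 on all arrays.

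**Figure D4:**
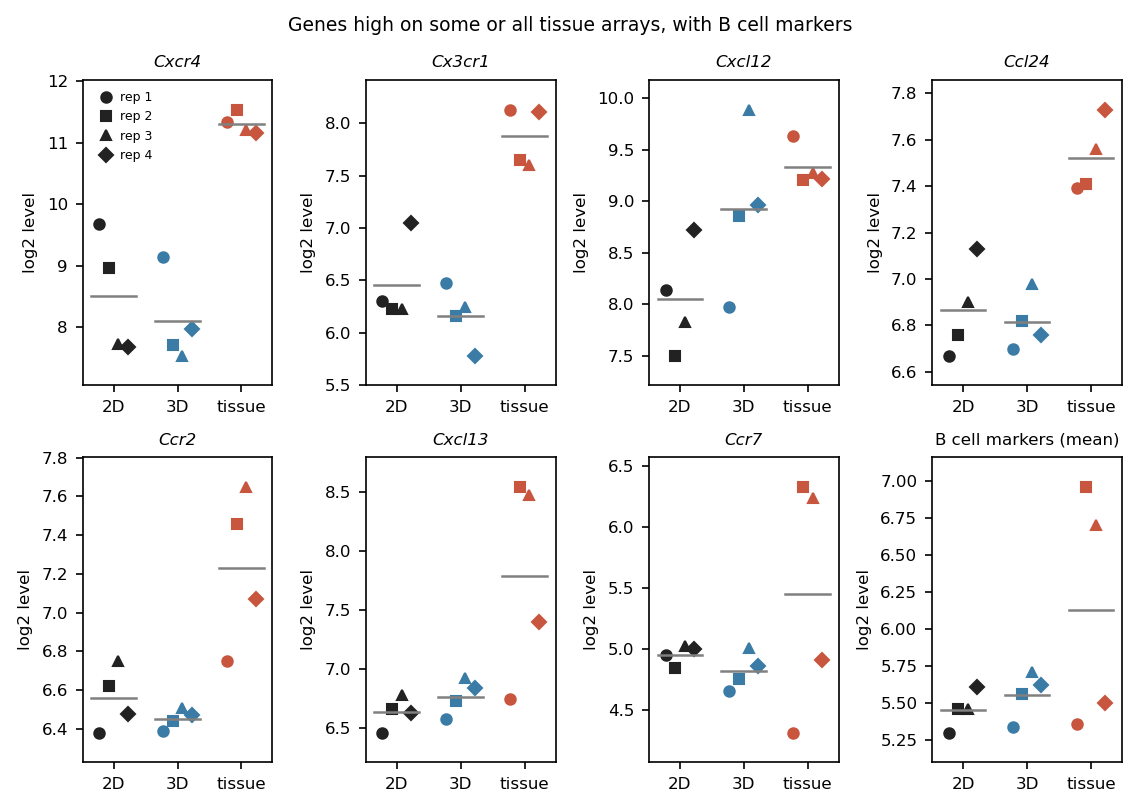
Log2 expression level of Cxcr4, Cx3cr1, Cxcl12, Ccl24, Ccr2, Cxcl13 and Ccr7, and the mean of 4 B cell markers, one point per array with a line at the mean of 4 arrays; the vertical scale differs between panels. Cxcr4 and Cx3cr1 are high on all 4 tissue arrays, whereas Cxcl13, Ccr7 and the B cell markers are high on tissue replicates 2 and 3.

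Cxcl13, Ccr7, Ccl5 and Ccl22 had their highest tissue values on replicates 2 and 3. Cxcl13, which draws B cells into follicles, was 6.46 to 6.78 in 2D, 6.58 to 6.92 in 3D and 6.75, 8.54, 8.47 and 7.40 in tissue. Tissue stood above 2D by 1.16 ± 0.38 (adjusted p = 0.0557) and above 3D by 1.02 ± 0.38 (adjusted p = 0.0634), and both passed without tissue replicate 1 (0.0111 and 0.0079). Ccr7, which guides T cells and dendritic cells to lymph nodes, was 4.65 to 5.02 on the culture arrays and 4.31, 6.33, 6.24 and 4.91 in tissue, with adjusted p of 0.393 and 0.266; against 3D it passed without tissue replicate 1 (0.0457). Ccl5 and Ccl22 were also highest in tissue on replicates 2 and 3, at 8.42 and 7.64 for Ccl5 and 7.53 and 6.95 for Ccl22. The same 2 arrays are those with the narrower range of values, and Ccl20 (6.35 and 6.28 against 5.79 and 5.78) and Cxcr2 (6.06 and 6.47 against 5.53 and 5.63) were also highest in tissue there. These arrays had the highest B cell marker means, 6.96 and 6.70 against 5.36 and 5.50 on the other tissue arrays and 5.30 to 5.71 in culture. Ms4a1, which defines B cells, was 5.56, 7.99, 6.90 and 5.30 in tissue. The mean of 9 T and NK cell markers was 6.90 and 6.99 on replicates 2 and 3 against 5.96 and 6.11. Of 4 B cell markers 0 were called against either culture, and the part of lymphoid cells or of the narrower range in these genes was not tested. Without tissue replicates 2 and 3, Ccl5 was lower in tissue than in 3D (adjusted p = 0.0298).

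**Figure D5:**
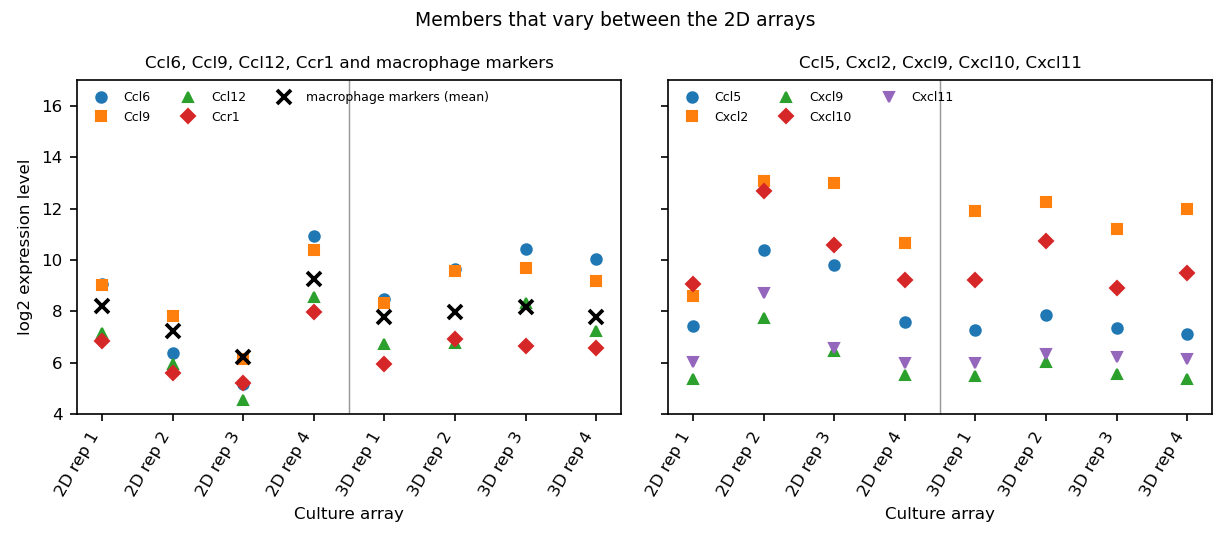
Log2 expression level on the 4 arrays of 2D and the 4 of 3D for Ccl6, Ccl9, Ccl12 and Ccr1 with the mean of 15 macrophage markers (left), and for Ccl5, Cxcl2, Cxcl9, Cxcl10 and Cxcl11 (right). On the left the 2D arrays rank 4, 1, 2 and 3 from high to low for all 4 genes and the markers, and on the right replicates 2 and 3 stand highest among the 2D arrays.

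The replicates of 2D were far less alike in these genes than those of 3D. The median SD over 4 arrays was 0.53 for the 35 genes in 2D where it was 0.19 for all genes, 0.29 and 0.12 in 3D, and 0.40 and 0.37 in tissue. In 2D, 14 of the 35 genes spanned more than 2 on the log2 scale, against 0 in 3D and 4 in tissue. Most followed either of the unlike patterns below. Ccl3 (6.69, 8.33, 7.23 and 9.02 in 2D) and Ccl11 (9.48, 7.16, 8.63 and 9.48) followed neither. Ccl6 was 9.08, 6.40, 5.18 and 10.93 in 2D, and Ccl9, also a myeloid Ccr1 ligand, was 9.03, 7.84, 6.16 and 10.39. Ccl12, a monocyte attractant of the Ccl2 cluster, was 7.16, 5.95, 4.56 and 8.57, and Ccr1 was 6.84, 5.60, 5.20 and 7.99. Ccl6, Ccl9, Ccl12 and Ccr1 ranked the arrays as the mean of the 15 macrophage markers did, which was 8.22, 7.25, 6.22 and 9.27. With 4 arrays this is a description only. Adgre1 was 8.43, 7.89, 6.58 and 9.44 on the same arrays.

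The second pattern was high on 2D replicates 2 and 3. Ccl5, a T cell attractant, was 7.43, 10.39, 9.79 and 7.59 in 2D and only 7.13 to 7.86 in 3D. Cxcl9, Cxcl10 and Cxcl11 had their highest 2D value on replicate 2 and their next on replicate 3, at 7.76 and 6.47, 12.68 and 10.58, and 8.71 and 6.57. Ccl2, Cxcl1, Cxcl2, Cxcl5 and Cxcl16 were likewise highest on these 2 arrays, with replicate 1 lowest. The macrophage markers were lowest on the same 2 arrays.

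Between 3D and 2D the question is whether the scaffold changed these genes, and with 4 arrays a group 0 of the 35 genes passed. Of the 35, 6 had an unadjusted p under 0.05: Ccl3, Ccl4, Ccl8, Ccl11, Cxcl14 and Cxcr6, all higher in 3D, where 7.57% of all genes were higher and 5.50% lower at that level. Cxcr6 was 4.71 to 5.17 on the arrays, under their median, and differed by 0.22. Its other probe set, 1422812_at, differed by −0.098 (adjusted p = 0.672). Cxcl14 differed by 0.88 ± 0.19 (adjusted p = 0.189), and its arrays did not overlap (exact permutation p = 0.0286, the smallest that 70 splits allow). Without 2D replicate 4 it passed (adjusted p = 0.0336). The dimmer probe set of Cxcl14, 1418457_at, differed by 0.67 ± 0.49 (adjusted p = 0.64). Its groups overlapped, at 5.73 to 8.32 in 2D and 7.14 to 7.87 in 3D. Ccl11 differed by 1.71 ± 0.54 (adjusted p = 0.3). Ccl3 differed by 1.22 ± 0.45 (adjusted p = 0.361). For Ccl2 the 95% interval of the difference was −0.74 to 1.49 and for Cxcl2 −1.57 to 2.58, so at this spread the interval of Cxcl2 held differences of more than 2-fold in either direction.

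Groups whose arrays did not overlap were counted as a description without a model. Between 3D and 2D, 2 of the 35 genes were separate and higher, Cxcl14 and Cxcr6, and 0 lower, against 4.49% and 2.87% of all genes. With the other probe set of either gene, these groups overlapped. In tissue 5 were separate and higher than in 2D and 8 lower, against 15.3% and 18.5% of all genes. Against 3D 5 were higher and 12 lower, against 18.3% and 24.1%. As shares of 35, the counts of genes separate and higher were close to those of all genes or under them.

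The 17 genes that passed in no comparison were Ccl5, Ccl9, Ccl12, Ccl17, Ccl20, Ccl22, Ccl25, Cxcl9, Cxcl11, Cxcl13, Cx3cl1, Xcl1, Ccr1, Ccr7, Cxcr2, Cxcr6 and Ackr3. Several had narrow ranges: Ccl17 and Ccl22, ligands of Ccr4, were 6.32 to 6.86 and 6.44 to 7.53 over the 12 arrays, Ccl20, the ligand of Ccr6, was 5.73 to 6.35, and Xcl1, which draws cross-presenting dendritic cells, was 6.39 to 6.93. Ccl17 against 2D differed by 0.27 (95% interval −0.07 to 0.60) and Xcl1 by 0.10 (−0.25 to 0.46). Changes of 2-fold in the measured level lay outside these intervals. Both genes read close to the median of the arrays, and without a detection call the intervals cannot exclude a change in a transcript hidden by background. Ccl25, a thymic and gut ligand, was 6.22 to 6.98 in culture and 6.26, 5.63, 5.11 and 6.75 in tissue. It passed without tissue replicate 4 (adjusted p = 0.0478 against 2D and 0.0351 against 3D). Its dimmer probe set, 1458277_at, differed on all arrays by −0.10 against 2D (adjusted p = 0.686) and by 0.0 against 3D. Of the 35, 32 reached 6 on at least 4 arrays, and Ccr7, Cxcr2 and Cxcr6 did not.

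Other genes of the family and its pathways were read from lists. Of 24 related family genes measured, 0 were higher and 4 (16.7%) lower in tissue than in 2D, against 9.87% and 14.3% of all genes. Against 3D, 1 (4.17%) was higher and 6 (25.0%) lower, against 15.5% and 20.1% of all genes. The median differences of these genes were 0.21 and 0.09, where all genes had 0.03 in both comparisons. Cxcl3, a further neutrophil attractant of the Cxcl1 cluster, was 7.88, 9.13, 8.64 and 10.25 in 2D, 9.09, 9.99, 8.55 and 8.92 in 3D and 3.65, 3.87, 3.80 and 3.33 in tissue (−5.31, adjusted p = 0.000166, and −5.47, adjusted p = 6.99e-06). Ackr4, a scavenger of CC ligands, differed by −2.21 (adjusted p = 0.001) and −2.57 (adjusted p = 2.87e-05). Mif differed from 2D by −1.74 (adjusted p = 0.0156), and Ppbp, a platelet ligand of Cxcr2, from 3D by −1.82 (adjusted p = 0.00265).

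Of 25 cytokines and NF-kB regulators, 0 were higher and 14 (56.0%) lower in tissue than in 2D, against 9.87% and 14.3% of all genes. Against 3D, 0 were higher and 18 (72.0%) lower, against 15.5% and 20.1% of all genes. Median differences were −1.19 and −1.23. Il6 was 11.24, 11.24, 12.02 and 11.45 in 2D, 9.20, 11.39, 9.72 and 9.46 in 3D and 3.75, 3.58, 4.24 and 3.85 in tissue (−7.63, adjusted p = 1.65e-06, and −6.09, adjusted p = 3e-05). Nfkbiz, an NF-kB cofactor for Il6, differed by −4.42 (adjusted p = 0.000118) and −4.78 (adjusted p = 3.14e-06), Tnfrsf1a against 2D by −1.44 (adjusted p = 0.00121) and Lif against 3D by −4.64 (adjusted p = 1.36e-06). Of 13 genes of the interferon pathway, 0 were higher and 7 (53.8%) lower in both comparisons, with median differences of −0.67 and −0.60. Socs3, a feedback inhibitor of cytokine signalling, differed by −2.85 (adjusted p = 5.37e-05) and −3.31 (adjusted p = 3.42e-05), and Irf7, a factor that amplifies interferon, by −2.28 (adjusted p = 0.00258) against 2D. In both lists the share lower thus stood above that of all genes, but the lists were chosen with earlier results of these data known.

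Genes that carry the signal of the receptors were called in both directions. Of 23, 4 (17.4%) were higher and 5 (21.7%) lower in tissue than in 2D, against 9.87% and 14.3% of all genes, and 5 (21.7%) and 6 (26.1%) than in 3D, against 15.5% and 20.1%, with median differences of −0.14 and −0.23. Rgs2, which shortens G protein signals, was 7.08, 5.96, 6.55 and 6.63 in 2D, 7.10, 7.07, 7.15 and 6.76 in 3D and 9.06, 9.13, 9.13 and 8.77 in tissue (2.47, adjusted p = 0.000325, and 2.00, adjusted p = 3.4e-05). Dock2, a leukocyte activator of Rac downstream of chemokine receptors, was higher than in 2D by 0.59 (adjusted p = 0.0223), and Gnai1, an inhibitory G protein subunit, higher than in 3D by 1.18 (adjusted p = 0.00237). Pxn, a focal adhesion adaptor, differed from 2D by −1.0 (adjusted p = 0.0187).

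Of 15 proteases and inhibitors that shed or trim chemokines, 1 was higher and 6 lower in tissue than in 2D. Of all genes, 9.87% were higher and 14.3% lower there. Against 3D, 0 of the 15 were higher and 8 lower, where 15.5% of all genes were higher and 20.1% lower. Median differences of the 15 were −1.23 and −1.34. The share lower thus stood above that of all genes in both comparisons, but this list too was chosen with earlier results of these data known. Adam10, a sheddase of Cx3cl1 and Cxcl16, differed by −1.51 (adjusted p = 0.00118) and −1.82 (adjusted p = 0.000141). Timp1, an inhibitor of metalloproteases, differed by −6.21 (adjusted p = 3.91e-05) and −6.64 (adjusted p = 3.07e-06), and Mmp3 against 3D by −6.08 (adjusted p = 9.99e-05). Adam10, Mmp3 and Timp1 were thus all lower in tissue than in 3D. Between 3D and 2D, 0 genes of these 5 lists were called in either direction.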

How the data were processed

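Messenger RNA of 12 samples, 4 in each of 3 groups, was measured on Affymetrix mouse arrays. The authors deposited log2 values from Expression Console, in which RMA corrects the background, equalises the quantiles of the arrays and summarises the probes of each set; versions are not given in the sources used here. Quantile normalization hides a shift shared by most genes. Of 45101 probe sets, 64 controls were left out; 34945 of the remaining 45037 carry 1 gene symbol in the platform annotation, 932 several and 9160 none. All 35 members matched a RefSeq gene record by identifier. They have 56 probe sets, and the one of highest mean stood for a gene.

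Groups were compared 2 at a time, from the 8 arrays concerned, by limma 3.58.1 (lmFit and eBayes) under R 4.3.3, with Benjamini-Hochberg adjustment over 45037 probe sets. Single values were also tested with an exact two-sided permutation test over 70 splits. The number of arrays limits the precision. Scripts were tested on simulated data. The closest pair of arrays differed by a root mean square of 0.187, and 0 pairs were identical. Batches were not tested, since scan dates were not used here. All 35 members are named; of each other list, the 3 genes of smallest adjusted p in a comparison could be named, with counts and defining genes for cell type lists. Members and lists were chosen with earlier results of these data known. Alternatives were 1 fit of all arrays, array weights (statmod 1.5.0), a trend and robust prior, a filter on dim probe sets, cyclic loess, centring, a replicate block, other probe sets of a gene, the methods' t-test, a minimum difference and leaving out arrays.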

Additional observations from a re-analysis of the deposited data

Results flagged for a closer look

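In 4 of 105 groups of 4 arrays, 1 array of a member stood apart from the other arrays of its group by Dixon's criterion, which chance meets in about 1 group in 20. Cxcl12 was 9.63 on tissue replicate 1 and 9.21 to 9.27 on the others. Cxcl16 was 9.92 on 3D replicate 2 and 9.14 to 9.23 on the others. Cx3cr1 was 7.05 on 2D replicate 4, the array with the highest mean of macrophage markers in 2D (9.27), and 6.23 to 6.30 on the others. Ackr3 was 10.00 on 3D replicate 1 and 9.29 to 9.38 on the others.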

How the results depend on the processing

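Of the 12 members called between tissue and 2D, 9 kept their call under all alternatives other than a minimum of 1 on the log2 scale, and of the 17 called between tissue and 3D, 14 did. That minimum, by construction, also ends the calls of Ccl24 in both comparisons and of Ccr2 and Ccl4 against 3D. Ccl24, Ccl3 and Cxcl16 against 2D and Ccl4, Ccl6 and Ccl11 against 3D lost it under at least 1 of the other alternatives; Ccl3 did so with the methods' t-test after adjustment (0.0501), Ccl6 in 1 fit of all 12 arrays (0.0649), Cxcl16 also with cyclic loess (0.0597), and Ccl4 also with cyclic loess (0.238) and centring (0.21). Among members not called, 7 gained a call under at least 1 alternative in each tissue comparison, Ccr2 against 2D under 8. Only Cx3cl1 against 3D reversed, to −0.49 with the probe set of highest SD. The cause was not tested.

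Members higher in 3D than in 2D numbered 0, but 1 with array weights (Cxcl14), 3 with the methods' t-test without adjustment, 0 to 1 with each array left out, and 2 with 2D replicate 4 and 3D replicate 1 left out, chosen after seeing the data (Cxcl12, 0.0449, and Cxcl14, 0.0129). Members higher in tissue than in 2D numbered 4, and 7 with that t-test; those higher than in 3D numbered 4, 7 with centring and 2 with a minimum of 1 on the log2 scale. With tissue replicates 2 and 3 left out, also chosen after seeing the data, 4 were higher and 7 lower against 2D and 5 and 13 against 3D. Centring moved the median difference of all genes to 0.31 in both tissue comparisons; genes higher and lower were 1796 and 2597 against 2D, 3021 and 1882 with centring and 2608 and 2378 with cyclic loess, and 2815 and 3660 against 3D, 4045 and 2627 with centring. Members lower stayed at 7 or 8 and at 12 under these scalings.

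With the replicate block, 6 members were higher and 9 lower in tissue than in 2D, 5 and 12 than in 3D, and 0 in either direction in 3D than in 2D. Of all 18193 genes, 1600 were then higher and 2643 lower in tissue than in 2D, and 2649 and 3489 than in 3D. Same-numbered arrays deviated together with correlations from −0.07 to 0.41, not all above 0.1, so the numbers were not taken as pairs; 2 of the 4 numbers in each comparison correlated best with their own number. The block added Ccl5 (0.0233), Ccr2 and Cxcl13 against 2D and Cxcl13 against 3D, and lost Ccl11 (0.0619) against 3D. Array number and signal near background limit the dim genes.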
